A study of Mus musculus with 8 samples.

Results

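Sox9, Wt1, Gata4, Gata1, Amh, Fshr, Inha, Dhh and Sox8 are genes of Sertoli cell identity and hormone response. They were followed by total RNA-seq in the mouse testis during the first wave of spermatogenesis and at the adult stage. The 9 genes were picked by symbol, with no measured value in the rule, though earlier results of these data were known. All 9 were found among the 23983 genes of the FPKM table. Testes of C57BL/6J mice were sequenced at day (d) 12, d16 and d24 after birth and at the adult stage, with 1 RNA library per stage, and the labels name no transgene, mutation or treatment in any group. The number of animals behind a library, the exact age of the adult and the batch were not given in the sources used here. The first wave is synchronous, so meiotic cells prevail at the early stages and haploid spermatids accumulate at the later ones.

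Sertoli cells are the somatic cells of the seminiferous tubule that enclose and feed the germ cells. SOX9, with its close relative SOX8, and the factors WT1 and GATA4 establish and keep their identity, and GATA1 is a blood cell regulator that is also made by Sertoli cells. Sertoli cells secrete anti-Müllerian hormone (AMH), the inhibin alpha chain (INHA) and the signal Desert hedgehog (DHH), and they carry the receptor for follicle-stimulating hormone (FSHR). AMH is known as a product of the immature Sertoli cell that is lost as androgen acts on it at puberty.

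Values are FPKM, that is fragments scaled to the length of the transcript and by a factor for each library. Levels of different genes in a library can thus be compared per length. Fragment numbers were read back from the steps in the deposited values. Between 8910413 fragments at d12 and 23689458 at d24 lay on genes, and 1 fragment on a transcript of 1 kb was worth from 0.0455 FPKM at d24 to 0.112 FPKM in adult testis. The adult library held 12053917 fragments on genes, more than the d12 library. Yet 1 fragment on 1 kb was worth 0.112 FPKM in adult testis and 0.0799 FPKM at d12. The factor of each library thus did not follow its fragments on genes alone. Intervals in parentheses are exact 95% intervals on the fragments and cover counting error only, since no stage has a second library. No p-value is given for this reason, and a gene was called only by size, at least 2-fold between stages after 0.1 FPKM was added to each value. Each library holds the RNA of all testis cells, so fewer Sertoli cells among the rest and less RNA per Sertoli cell cannot be told apart.

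Promoter sequences of RefSeq (GRCm38.p6) were found for 5 of the 9 genes, namely Gata1, Fshr, Inha, Dhh and Sox8, but not for Sox9, Wt1, Gata4 and Amh. The windows of Fshr, Sox8 and Dhh are shown because they stand for the receptor, a factor and a ligand that were all lower at each later stage. They run 5′ to 3′ on the minus strand, 250 bases for Fshr and Sox8 and 228 for Dhh, and end before the first exon of any annotated model. Capitals mark GATAA, the core read by GATA factors, or CACGTG, an E-box, on either strand.
Fshr promoter, chr17:89200676-89200925: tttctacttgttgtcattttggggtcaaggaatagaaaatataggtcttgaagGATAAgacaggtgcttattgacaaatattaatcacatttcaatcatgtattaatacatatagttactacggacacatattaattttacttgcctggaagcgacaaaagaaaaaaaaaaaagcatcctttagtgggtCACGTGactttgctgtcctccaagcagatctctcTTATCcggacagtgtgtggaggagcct
Sox8 promoter, chr17:25570687-25570936: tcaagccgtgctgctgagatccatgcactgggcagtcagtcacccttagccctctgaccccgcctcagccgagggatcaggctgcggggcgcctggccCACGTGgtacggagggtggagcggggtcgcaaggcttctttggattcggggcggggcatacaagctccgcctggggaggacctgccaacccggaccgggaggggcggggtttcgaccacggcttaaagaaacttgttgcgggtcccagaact
Dhh promoter, chr15:98898563-98898790: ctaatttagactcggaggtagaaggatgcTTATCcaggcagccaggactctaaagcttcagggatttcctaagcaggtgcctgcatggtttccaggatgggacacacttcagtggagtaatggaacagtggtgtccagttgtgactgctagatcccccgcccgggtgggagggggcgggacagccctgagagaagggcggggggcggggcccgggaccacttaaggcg

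Counted from the annotated start, Fshr had GATAA from -197 to -193 and, as TTATC, from -27 to -23, with CACGTG from -61 to -56. Sox8 had CACGTG from -152 to -147 and no GATAA, and Dhh had GATAA, as TTATC, from -221 to -217 and no CACGTG. Of all 32851 promoters of the table, 22.6% held GATAA and 6.02% held CACGTG within 250 bases, and 21.4% and 5.26% within the 228 bases shown for Dhh. No matches overlapped. Neither ACAAT, a SOX core, nor AAGGTCA, read by NR5A1, occurred in any of the 3 windows, while 27.7% and 4.08% of all promoters held them. The GC box GGGCGG occurred 4 times in Dhh, 2 times in Sox8 and 0 times in Fshr, and in 32.7% of all promoters. These matches describe the sequence and do not show binding. The Inha window is not shown because it lies inside a longer Inha transcript, and that of Gata1 because a second annotated first exon lies farther upstream. Sertoli cells are known to use a distal first exon of Gata1, and the FPKM value does not separate the starts.

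All 9 genes were lower in adult testis than at d12, and 8 of them at least 2-fold. Over the 13901 genes that averaged 1 FPKM or more, 23.1% were at least 2-fold lower and 35.7% at least 2-fold higher. The median adult level of the 9 genes was 0.314 of that at d12, against 1.15 for those 13901 genes, the latter with 0.1 FPKM added. Only Gata1 missed the 2-fold limit, at 1.86-fold lower (1.44 to 2.42), while Inha lay just inside it at 2.14-fold (1.87 to 2.44). Sox9 was 5.71-fold lower (4.51 to 7.30), and 2.77% of all genes were lower by more than Sox9. For Gata1, 26.0% of all genes were lower by more. Each of the 9 also had a lower value at each later stage than at the one before.

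**Figure D1:**
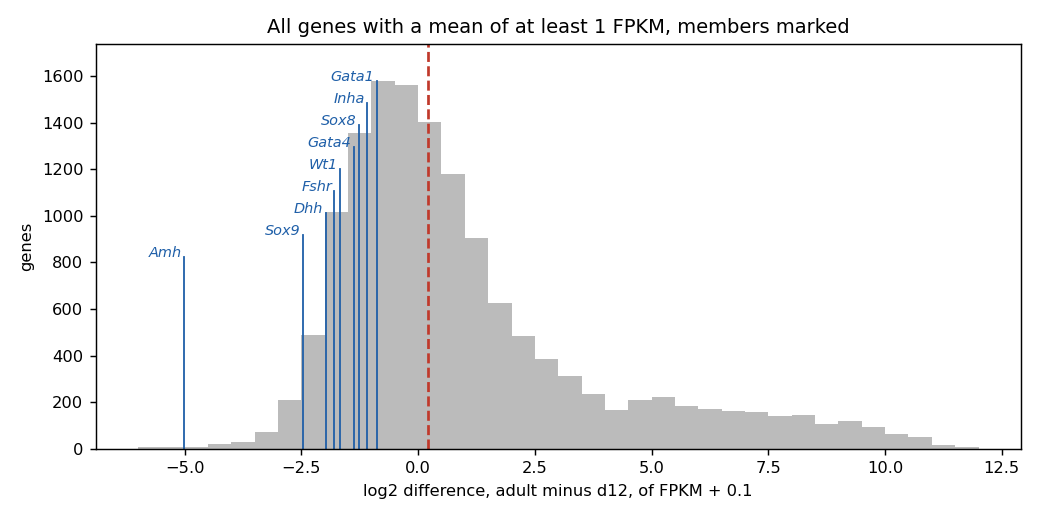
Histogram of the log2 difference between adult and d12 of FPKM + 0.1 over 13901 genes (y axis, number of genes, in bins of 0.5), with a line for each of the 9 genes (line height has no meaning) and a dashed line at the median of all genes. All 9 lines lie to the left of that median, with Amh far out at -5.01, where its adult value of 0 makes the position depend on the added 0.1 FPKM.

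The size of the fall, and how it splits over the steps, rest on the scaling between libraries. When the FPKM sums were set equal, all 9 genes were at least 2-fold lower, and of all genes 49.7% were lower and 23.1% higher by that limit. With the same upper quartile, the split of all genes was 37.8% lower and 27.7% higher. Gapdh, the reference gene of the RT-qPCR assays of the study, lay at 68.9 FPKM at d12 and between 19.1 and 42.6 at the later stages. Divided by Gapdh, 71.1% of all genes were at least 2-fold higher in adult testis and 2.00% lower, and only 4 of the 9 genes were still lower than at d12. The median of all genes, adult against d12, stood at 0.20 on the log2 scale as deposited, -0.99 with equal sums, -0.45 with equal upper quartiles and 1.97 divided by Gapdh. Relative to it, the median of the 9 genes was 0.273 as deposited, a ratio that such scalings leave nearly unmoved by construction. From d12 to d16, d16 to d24 and d24 to adult, equal sums multiply each ratio by 0.921, 0.651 and 0.717. Division by Gapdh multiplies them by 1.62, 2.23 and 0.954. The largest steps and the shares of the log2 fall given below therefore hold for the deposited values only.

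**Figure D2:**
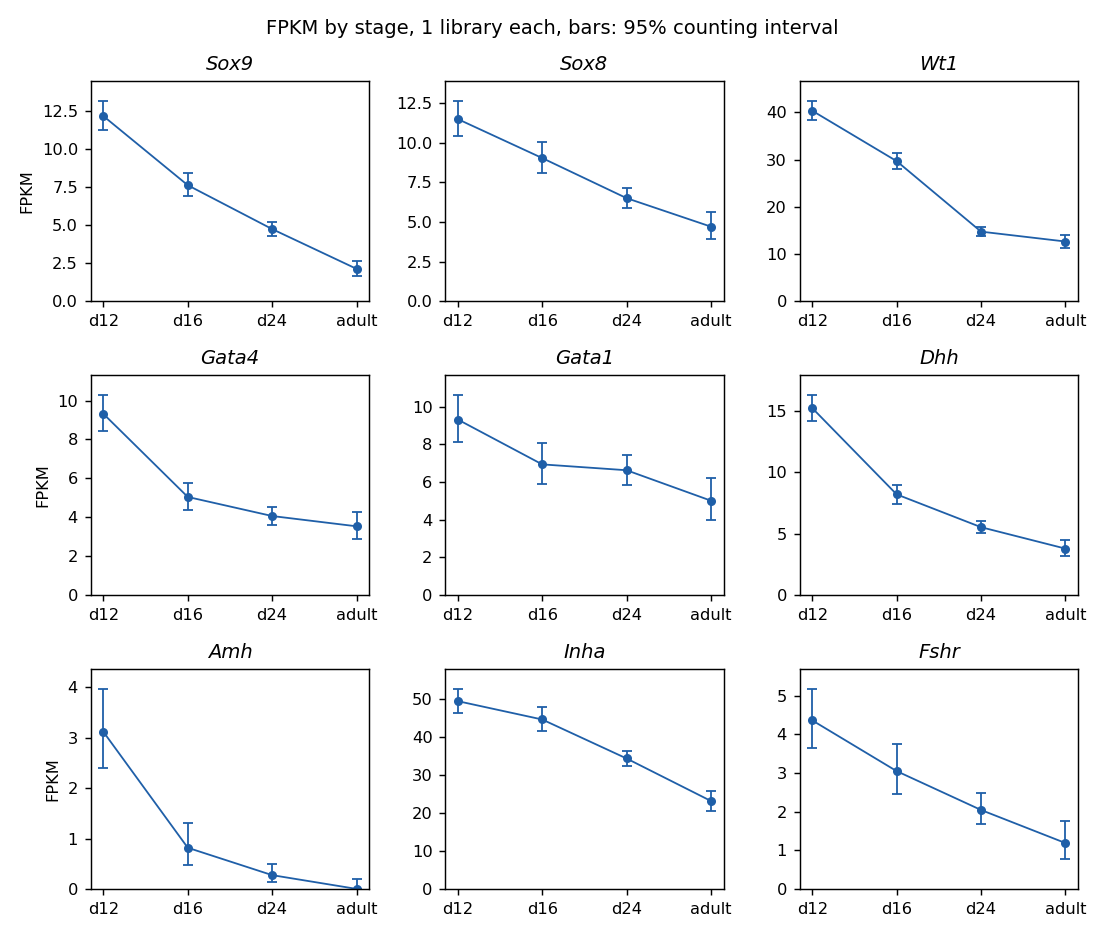
FPKM of each gene (y axis, linear from 0, own range per panel) at the 4 stages (x axis), 1 library per point, with exact 95% counting intervals as bars (for Amh in adult testis, up to the limit of 3 fragments). Every panel steps downward, from 12.2 to 2.14 FPKM in Sox9 and from 49.4 to 23.1 FPKM in Inha. The curves differ in shape. As deposited, the largest drop in FPKM lies between d12 and d16 in Sox9, Gata4, Gata1, Dhh, Amh and Fshr. It lies between d16 and d24 in Wt1 and, by little, in Sox8, and between d24 and adult in Inha.

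The SOX factors parted from each other. Sox9 (chromosome 11, 112782210 to 112787757, plus strand) drives the choice of the Sertoli fate and lay at 12.2 FPKM at d12, at 7.64 by d16, at 4.75 by d24 and at 2.14 in the adult (79 fragments, 1.69 to 2.66). The intervals of neighbouring stages did not overlap. The last step was 2.22-fold lower (1.75 to 2.86), and its interval touched those of the earlier steps, 1.596-fold (1.41 to 1.81) and 1.61-fold (1.40 to 1.85), only at the edge. Sox8 (chromosome 17, 25565893 to 25570686, minus strand), which can act with Sox9, lay at 11.5, 9.04, 6.51 and 4.71 FPKM at the same stages. It was 2.44-fold lower over the whole course (2.00 to 3.00), in steps of 1.27-fold, 1.39-fold and 1.38-fold. At d12 the intervals of Sox9 and Sox8 overlapped, and in adult testis Sox8 was 2.205 times Sox9 (1.65 to 2.96).

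Wt1 (chromosome 2, 105126529 to 105173614, plus strand) encodes a zinc finger factor needed for Sertoli cell maintenance. It lay at 40.3 FPKM at d12, then at 29.7, 14.8 and 12.7 FPKM at d16, d24 and the adult stage. As deposited, its largest step was d16 to d24, 2.01-fold lower (1.85 to 2.19), with 60.3% of its log2 fall over the course. From d24 to adult it was 1.17-fold lower (1.03 to 1.32).

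Gata4 (chromosome 14, 63198914 to 63271712, minus strand), a zinc finger factor of Sertoli cells that Leydig cells make as well, lay at 9.32, 5.05, 4.06 and 3.54 FPKM. As deposited, its largest step was the first, 1.85-fold lower (1.56 to 2.19), with 63.3% of the log2 fall, and the intervals of d24 and adult overlapped. Gata1 (chromosome X, 7959260 to 7976663, minus strand) lay at 9.32, 6.94, 6.63 and 5.01 FPKM. Both GATA genes thus started at the same level at d12, and at d24 Gata1 was 1.63 times and in adult testis 1.42 times Gata4. The d16 and d24 values of Gata1 differed by less than counting error, with a ratio of 0.955 (0.785 to 1.17).

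Among the secreted products, Amh (chromosome 10, 80805240 to 80807679, plus strand) stood apart. At d12 its level was 3.12 FPKM, from 65 fragments (2.41 to 3.97). By d16 it was 0.817 FPKM, from 17 fragments (0.476 to 1.31), and by d24 it was 0.273 FPKM, from 10 fragments (0.131 to 0.503). The adult library held 0 Amh fragments, and a limit of 3 fragments, used here for any count of 0, allows up to 0.202 FPKM (the exact interval ends at 0.248). The intervals of d12 and d16 did not overlap. From d12 to d16 Amh was 3.82-fold lower (2.21 to 6.95), the only one of the 9 genes past 2-fold in that step, where 3.67% of all genes were at least 2-fold lower and 12.6% higher. The d16 to d24 step was 2.99-fold (1.29 to 7.30). Set against the limit of 3 fragments, the adult level was at least 15.4-fold lower than the d12 value and at least 1.35-fold lower than the d24 value, without the counting error of those values. The d24 interval reached below that limit, so a difference between d24 and adult was not detectable at this depth.

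Inha (chromosome 1, 75507077 to 75510366, plus strand), whose protein joins a beta chain to form inhibin and restrains FSH release, had the highest level of the 9 in every library. It lay at 49.4, 44.6, 34.3 and 23.1 FPKM, and its first step was small, 1.11-fold (1.01 to 1.22). As deposited, the last step held 52.0% of its log2 fall. The 2 curated Inha transcripts differ in length, so its fragments, computed with the shorter one of 1475 bases, are approximate. Dhh (chromosome 15, 98881615 to 98898562, minus strand), the ligand that Sertoli cells send to Leydig and peritubular cells, lay at 15.2, 8.21, 5.54 and 3.79 FPKM. As deposited, it was 4.02-fold lower over the course (3.36 to 4.84), with 44.5% of the log2 fall in the first step.

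Fshr (chromosome 17, 88984952 to 89200675, minus strand), the receptor through which FSH raises cAMP in Sertoli cells, lay at 4.36 FPKM at d12, from 129 fragments, and at 3.05 by d16 and 2.04 by d24, from 90 and 106 fragments. In the adult it was at 1.19 FPKM, from 25 fragments (0.769 to 1.75). It was 3.67-fold lower over the course (2.38 to 5.89). Its 3 steps of 1.43-fold, 1.49-fold and 1.72-fold had intervals that overlapped one another, so no stage of faster loss could be read at this depth.

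Of the steps, d16 to d24 had Amh and Wt1 past 2-fold, 2 of 9 genes, against 8.45% of all genes lower and 27.5% higher. The d24 to adult step had Sox9 and, by the added 0.1 FPKM alone, Amh past 2-fold, against 2.2% of all genes lower and 11.4% higher. None of the 9 genes was at least 2-fold higher in any step as deposited. Divided by Gapdh, 1 was at least 2-fold higher from d16 to d24, and 1 of the 9 was lower at all in that step. The median of the 9 was similar in the 3 steps, with a ratio of 0.699 for d12 to d16, 0.674 for d16 to d24 and 0.684 for d24 to adult, while the median of all genes was 1.00, 1.09 and 0.987.

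**Figure D3:**
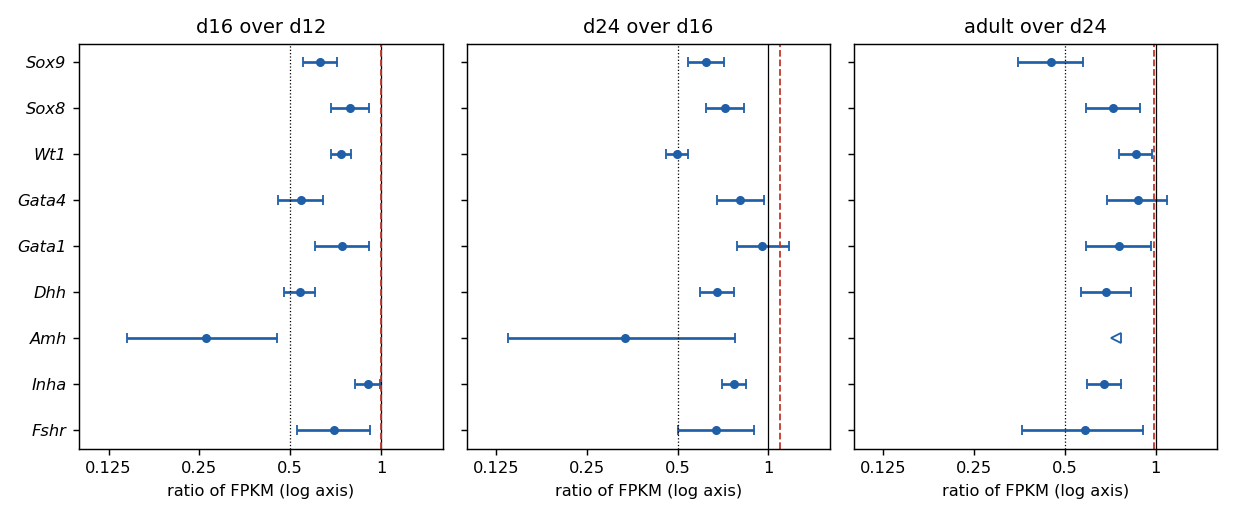
Ratio of FPKM between neighbouring stages (x axis, log scale) for each gene, with exact 95% intervals from the fragments, a dotted line at 0.5, a solid line at 1 and a dashed line at the median of all genes. The open triangle is the upper bound for Amh, which had no fragment in adult testis. Amh lies farthest left in the first step, at 0.262, Wt1 has the narrowest interval in the second step, at 0.497, and Sox9 lies farthest left in the last step, at 0.450.

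The order of the levels shifted in the middle. Inha came first and Wt1 second in all 4 libraries, with intervals clear of each other and of the rest, and Fshr came eighth and Amh ninth. At d12 the places between them went to Dhh, Sox9, Sox8, Gata1 and Gata4, of which Sox9 and Sox8, Sox8 and Gata1, and Gata1 and Gata4 had overlapping intervals. In adult testis they went to Gata1, Sox8, Dhh, Gata4 and Sox9. There the intervals overlapped from Gata1 to Sox8, from Sox8 to Dhh and from Dhh to Gata4, and Sox9 lay below Gata4 with no overlap. Sox9 and Fshr overlapped in adult testis, and Fshr and Amh at d12.

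Ratios of 2 genes within the same library do not depend on the scaling between libraries. Relative to Sox9, Amh lay at 0.256 at d12 (0.195 to 0.330), 0.107 at d16 (0.0616 to 0.173) and 0.0575 at d24 (0.0274 to 0.107), and at no more than 0.0946 in adult testis. Relative to Wt1 it lay at 0.0773, 0.0275 and 0.0185 (0.00886 to 0.0342), and at no more than 0.0160 in adult testis. These adult limits are those of 3 fragments and leave out the counting error of the denominator. Both lay inside the d24 intervals, so no difference between d24 and adult could be read. The d12 and d16 intervals did not overlap with either denominator, so Amh was lower at d16 than at d12 also per unit of these other Sertoli transcripts.

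Inha moved the other way. Its level relative to Sox9 was 4.06 at d12, then 5.84 and 7.23, and 10.8 in the adult (8.43 to 14.1). Relative to Wt1 it was 1.23 at d12, then 1.504 and 2.33, and 1.83 in the adult (1.56 to 2.14). Gata1 was 0.764 of Sox9 at d12 and 2.35 times Sox9 in adult testis, and its level relative to Wt1 was 0.231 at d12 and 0.396 in adult testis. From d12 to adult, the ratio to Sox9 was higher 3.07-fold for Gata1 (2.18 to 4.32), 2.67-fold for Inha (2.04 to 3.49), 2.34-fold for Sox8 (1.72 to 3.18) and 2.17-fold for Gata4 (1.58 to 2.97). These intervals come from the 4 fragment numbers on a log scale.

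The choice of denominator mattered, because Sox9 was itself the second most reduced gene. The ratio of Sox9 to Wt1 lay between 0.257 and 0.322 at d12, d16 and d24 and at 0.169 in adult testis (0.131 to 0.216), below the interval of each earlier stage. Relative to Wt1, Gata1 was still higher in adult testis than at d12, 1.71-fold (1.30 to 2.26), as were Inha, 1.49-fold (1.25 to 1.78), and Sox8, 1.31-fold (1.04 to 1.64). Gata4 was at 1.21-fold (0.948 to 1.54) and Fshr at 0.867-fold (0.557 to 1.35), which counting error does not separate from 1, and Dhh was at 0.792-fold (0.641 to 0.980).

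**Figure D4:**
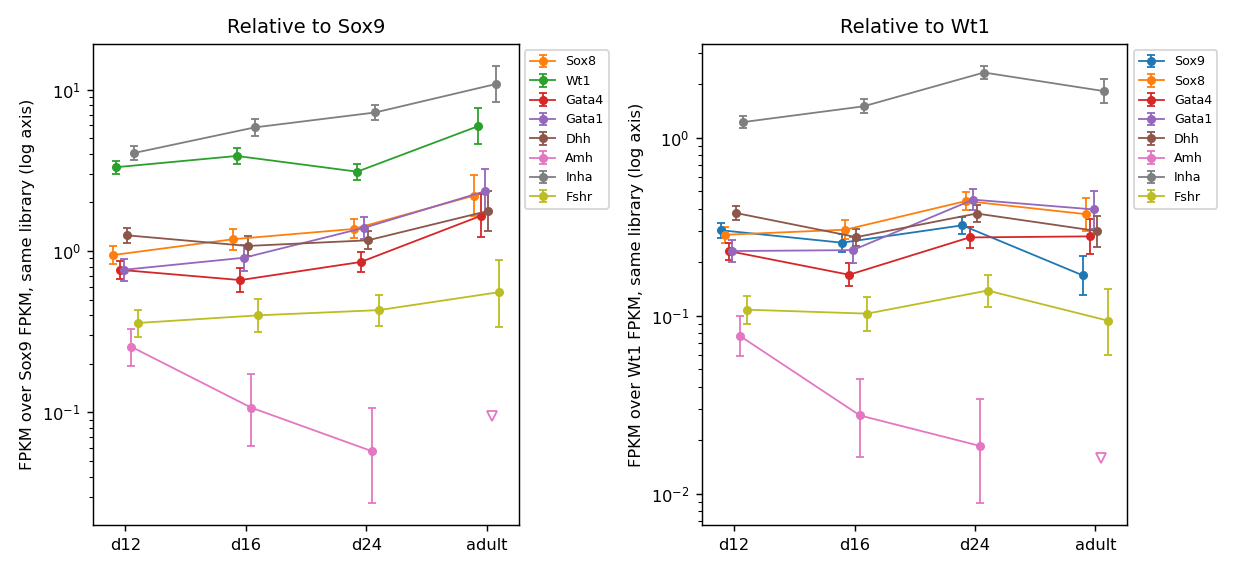
FPKM of each gene divided by that of Sox9 (left) or Wt1 (right) in the same library (y axis, log scale) at the 4 stages (x axis, points shifted sideways for clarity), with exact 95% counting intervals. The open triangle is the value of 3 fragments for Amh in adult testis. Amh drops from d12 to d24 in both panels, and Inha is the highest line, from 4.06 to 10.8 times Sox9.

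Counts of the gene lists, for adult against d12, stand beside 23.1% of all genes lower and 35.7% higher, and they depend on the scaling as the 9 genes do. Of 10 genes that act in sex determination beside the 9, 6 were at least 2-fold lower and 2 higher, but 0 were lower and 4 higher when divided by Gapdh. Dmrt1, which keeps Sertoli cells male and is also made by spermatogonia, lay at 77.4 FPKM at d12 and 14.8 in adult testis. Nr0b1 (DAX1) lay at 20.1 and 9.13 FPKM, and Nr5a1 (SF1), an activator of Amh that Leydig cells share, at 17.7 and 6.24. Zfpm2 (FOG2), the cofactor of GATA4, lay at 2.31 FPKM at d12 and 3.18 in adult testis. Sry, which starts testis formation in the embryo, was listed at 0 FPKM at d12 and d16 and at 1.89 FPKM in adult testis, and Ptgds, a prostaglandin D synthase, lay at 0.298 and 17.1 FPKM.

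Of 16 genes of the AMH, inhibin and activin pathway, 8 were at least 2-fold lower and 1 higher. With equal FPKM sums 15 were lower and 0 higher, and divided by Gapdh 2 were lower and 5 higher. The AMH receptor gene Amhr2 lay at 47.2, 42.8, 42.5 and 37.5 FPKM, while Amh went to 0 fragments. As deposited, its adult level was 1.26-fold lower than at d12 (with 0.1 FPKM added). Which cells carried Amhr2 was not tested. Of the activin chains, Inhbb lay at 19.8, 11.99, 8.61 and 5.69 FPKM, and Inhba at 2.19, 0.837 and 0.357 FPKM and was listed at 0 in adult testis. Inha was 2.495 times Inhbb at d12, 3.72 times by d16, 3.99 times by d24 and 4.07 times in the adult. The activin receptor Acvr2a lay at 9.40 FPKM at d12 and 10.0 in adult testis, and Smad1, a mediator of AMH and BMP signals, was higher in the adult, at 13.03 FPKM, than at d12, at 5.64.

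Of 14 genes of the hedgehog pathway, 7 were at least 2-fold lower and 1 higher. With equal FPKM sums 10 were lower and 1 higher, and divided by Gapdh 4 were lower and 4 higher. Ptch1, the DHH receptor and itself a target of the pathway, lay at 13.2, 8.10, 3.31 and 1.46 FPKM. The signal transducer Smo lay at 12.8, 8.97, 3.32 and 1.55 FPKM, and the target gene Gli1 at 1.74, 1.00, 0.559 and 0.0306 FPKM. Ptch1 and Smo had a smaller share of their d12 level left in adult testis than Dhh. The adult Gli1 value lay below the 0.112 FPKM of 1 fragment on 1 kb in that library. Its fragments were not counted, so its share was not compared with that of Dhh. Sufu, an inhibitor of the pathway, lay at 1.17 FPKM at d12 and 22.6 in adult testis. Shh and Ihh stayed under 0.1 FPKM in each library, against 3.79 to 15.2 FPKM for Dhh.

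Of 12 genes of FSH and cAMP signalling, 6 were at least 2-fold lower and 2 higher, a split that turned to 0 lower and 6 higher when divided by Gapdh. Gnas, the stimulatory G protein, lay at 98.2 FPKM at d12 and 40.9 in adult testis, Prkar2b, a regulatory chain of protein kinase A, at 29.2 and 5.68, and Kitl, an FSH-responsive growth factor of Sertoli cells, at 25.6 and 6.19. Prkaca, the catalytic chain that sperm also carry, lay at 17.3 and 87.1 FPKM. Cyp19a1, also at least 2-fold higher, lay at 0 FPKM at d12 and 2.32 in adult testis, and Prkar1a at 29.7 and 40.0. Rhox5, an androgen target, lay at 20.3 FPKM at d12 and 16.7 in adult testis, and its level relative to Wt1 was 0.502 at d12, then 0.687 and 1.16, and 1.32 in the adult. Eppin lay at 24.9 and 21.8 FPKM and Cldn3 at 0.126 and 4.35 FPKM.

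Markers of Sertoli cells and of the ovarian somatic fate were set beside the 9 genes. Which cells gave the levels of the 9 genes was not tested. Of 10 further Sertoli markers, 9 had a mean of at least 1 FPKM, and 6 were at least 2-fold lower in adult testis and 0 higher, with a median ratio of 0.327 beside 0.315 for the 9 genes. Divided by Gapdh, 0 of these markers were lower and 2 higher, with a median of 1.12 beside 1.08 for the 9 genes. Clu lay at 706.7 FPKM at d12 and 456.6 in adult testis, Ctsl at 465.2 and 252.7, Aard at 357.7 and 82.2, and Cst12 at 342.1 and 124.7. Of 5 genes of the ovarian somatic fate, Foxl2, its defining factor, was at 0 FPKM in 3 libraries and 0.0317 at d16, and Wnt4 stayed under 0.335 FPKM. Rspo1 and Esr2 were at least 2-fold lower and Lgr5 higher, at 0.0508 FPKM at d12 and 6.76 in adult testis.

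The other cells of the testis moved at the same time. The 6 spermatid markers summed to 14.6 FPKM at d12, then to 7.80 and 2377, and to 25816 in the adult, and the 6 spermatocyte markers to 753.9, 2159, 4233 and 4735. The 6 spermatogonia markers had a median ratio of 0.305 between adult and d12, with 5 at least 2-fold lower, the 4 peritubular myoid markers 0.379 with 3 lower, and the 6 endothelial and Schwann markers 0.444 with 4 lower and 1 higher. Divided by Gapdh, these 3 lists had medians of 1.04, 1.29 and 1.48. The 6 Leydig markers had a median ratio of 2.47 with 3 at least 2-fold higher (1.06 with 1 higher and 1 lower at equal FPKM sums, and 8.48 with 6 higher divided by Gapdh), and summed to 131.6, 82.4, 153.4 and 580.7 FPKM, which touches Inha, Gata4 and Nr5a1. The 3 macrophage markers had a median ratio of 0.763 with none past 2-fold, against 0.349 with all 3 lower at equal FPKM sums and 2.53 with all 3 higher divided by Gapdh. The part of any of these cells in the levels of the 9 genes was not tested.

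For Gata1, 7 erythroid and eosinophil markers were found in the table, 2 of them at least 2-fold lower and 1 higher. Hba-a1, an alpha globin, lay at 236.2 FPKM at d12 and between 50.6 and 59.4 at the later stages, while Gata1 was 1.34-fold lower from d12 to d16 (1.09 to 1.65). Klf1 and Epor stayed under 0.8 FPKM in each library, Epx was at 0 in 3 of 4 libraries and Prg2 at 0 in all 4. Alas2 lay between 1.496 and 5.55 FPKM. For Dhh, which Schwann cells make too, the Schwann marker Sox10 lay at 0.883 FPKM at d12 and 0.165 in adult testis.

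**Figure D5:**
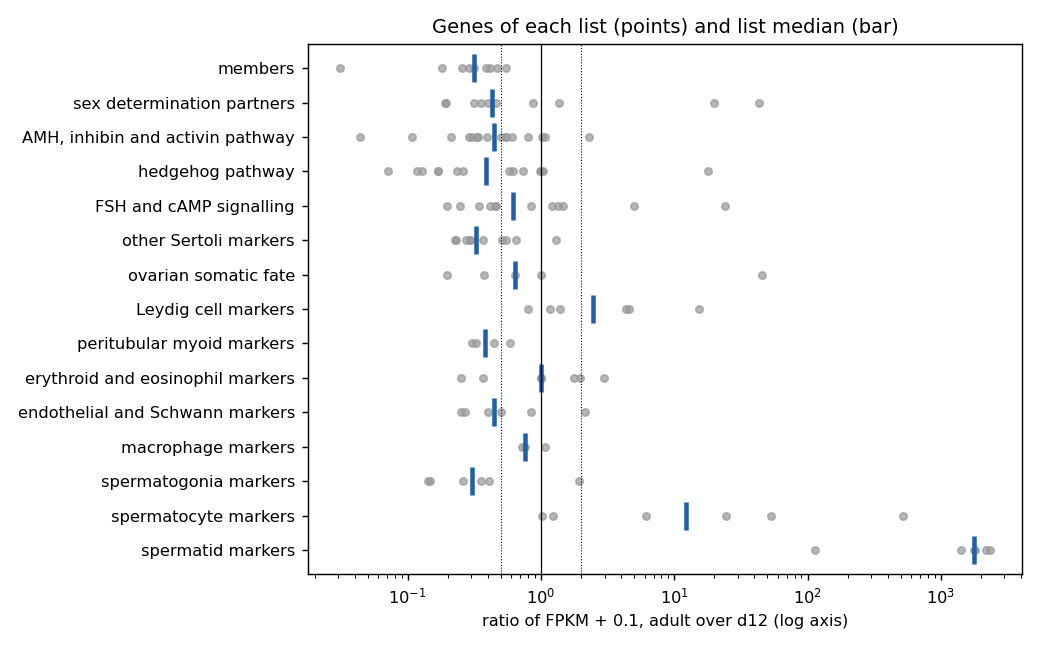
Ratio of FPKM + 0.1 between adult testis and d12 (x axis, log scale) for the genes of each list (points) and the list median (bar), with a solid line at 1 and dotted lines at 0.5 and 2. The medians of the 9 genes, the other Sertoli markers, the myoid and the spermatogonia markers lie between 0.305 and 0.379, and those of Leydig markers, spermatocyte and spermatid markers at 2.47, 12.2 and 1787.

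Among 9476 genes that averaged 5 FPKM or more, those with the stage profile closest to the median profile of the 9 genes were Rest, Hcfc1, Plce1, Cflar and Mcoln1, within 0.0878 log2 units at every stage. In all, 419 genes lay within 0.25 log2 units of it. The closest to Sox9 were Pus7, Hist4h4 and Ddr1, with 40 genes within 0.25, and the closest to Gata1 were Tia1, Parp8 and Tnfaip1, with 566 genes. For Amh, whose profile depends on the 0.1 FPKM added to its adult 0, the closest of these genes were Fabp4, H19 and Snora52, at 0.361 to 0.398 log2 units. The limit of 5 FPKM keeps genes of a level as low as Amh out of this comparison. Likeness over 4 libraries describes these profiles only.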

How the data were processed

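Total RNA-seq of mouse testis at d12, d16, d24 and adult was analysed, with 1 library per stage. The 4 H3K27Ac ChIP-seq samples were left out, as no file of theirs was used. FPKM values were deposited by the authors, who aligned reads against the GRCm38/mm10 genome by TopHat2 2.1.0 (Bowtie 1.1.2), kept 1 alignment per pair and ran Cuffdiff of Cufflinks 2.2.1 on RefSeq genes with multi-read and bias correction and no effective length correction. The scaling between libraries is not given in the sources used here, and it sets every ratio between stages. It did not follow the number of fragments on genes alone.

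Fragments were recovered as multiples of the value of 1 fragment, read from 14603 genes with 1 curated RefSeq transcript. Of values up to 20 fragments, 91.7% to 92.4% lay within 0.05 of a whole number. For Amh, a length of 1665 bases in place of the annotated 1704 gave whole fragments and was used. Intervals are exact Poisson and Clopper-Pearson intervals. Calls used 2-fold on FPKM + 0.1. Shares of all genes were taken over those averaging 1 FPKM or more, while the counts of the lists include their genes below it. Scripts used python 3.11.15, numpy 2.4.6, pandas 2.3.3, scipy 1.17.1 and matplotlib 3.10.9. The value of 1 fragment was tested on simulated data. The calls were tested on d12 values made lower without noise, which checks the code only.

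The 9 genes, the gene lists and the comparisons were chosen with earlier results of these data known. Genes named are the 9, of each list up to 4 with the highest mean or those called, Gapdh, and the nearest profiles by the largest log2 difference. Zfpm2, Acvr2a, Shh, Ihh, Foxl2, Epx and Prg2 fall outside this rule and were named after their values were seen. Some genes of the lists are not reported here. Alternatives were 3 other scalings, another pseudocount, fold limit, background and denominator.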

Additional observations from a re-analysis of the deposited data

How the results depend on the processing

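Of 81 alternatives over 27 results, 23 stayed within the counting interval or 1.5 times the count, 45 moved and 13 turned the direction. Ratios between stages depend on the scaling between libraries, and with 1 library per stage the spread between animals is unknown. No paired analysis was possible because each stage has 1 library. The cause of these moves was not tested beyond the construction of each setting.

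With the same FPKM sum, the genes at least 2-fold lower were 2 for d12 to d16, 6 for d16 to d24 and 4 for d24 to adult, and the median ratio of the 9 was 0.439 for d16 to d24, 0.491 for d24 to adult and 0.135 for d12 to adult. With the same upper quartile, 3 genes were lower for d12 to d16, and the median was 0.553 for d16 to d24 and 0.199 for d12 to adult. Divided by Gapdh, 0 genes were lower for d16 to d24 and 1 for d12 to adult, and the median turned to 1.13 for d12 to d16, 1.504 for d16 to d24 and 1.08 for d12 to adult. Adult over d12 then turned for Wt1 (1.08), Gata4 (1.31), Gata1 (1.85), Inha (1.61) and Sox8 (1.41). With 1 FPKM added, 0 genes were lower for d16 to d24 and for d24 to adult, and the median for d12 to adult was 0.408. At 1.5-fold, 4 genes were lower for d12 to d16.

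Relative to Wt1 in place of Sox9, the ratio of adult over d12 was 1.21 for Gata4, 1.71 for Gata1, 1.49 for Inha and 1.31 for Sox8, and it turned for Fshr (0.867) and Dhh (0.792). Amh, at 0 in adult testis, was left out of the geometric mean of the other genes. Relative to that mean it was 1.17 for Gata4, 1.74 for Gata1, 1.48 for Inha and 1.27 for Sox8, and it turned for Wt1 (0.939), Fshr (0.798) and Dhh (0.720).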
